A study of Mus musculus with 6 samples.

Results

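The genes described here are the cadherins and protocadherins of mouse lung tumour cells. They were taken from the count table as protein-coding genes whose symbol starts with Cdh and a digit, with Pcdh or with Celsr, leaving out Cdh1 and Cdh2. The rule gave 93 of 55487 genes, or 92 symbols, since Pcdha11 has 2 identifiers. Of the 93, 36 lie outside the protocadherin clusters and 57 belong to the alpha, beta and gamma clusters.

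RNA was sequenced from mouse lung tumours labelled KP, a genetically engineered model of lung adenocarcinoma. The 3 sgNeo libraries carry a control guide and are labelled Lkb1 wild type, and the 3 sgLkb1 libraries carry a guide against Lkb1 (gene symbol Stk11) and are labelled Lkb1 mutant. Both groups share the KP background, 11 weeks of growth after tumour initiation and a sort for GFP-positive, CD45-negative cells from digested lung. The age of the mice, the pooling of animals and the agent that carried the guides are not stated in the labels. The labels number the libraries without saying that they came from separate animals, so p-values measure the spread between these libraries, which may be technical.

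Cadherins are membrane proteins that bind cadherins on neighbouring cells through calcium-bound extracellular repeats. Classical cadherins hold catenins on their cytoplasmic tails and so tie adherens junctions to actin, whereas Celsr proteins act in planar cell polarity and protocadherins recognise like molecules on other cells. In each clustered protocadherin locus single variable exons are expressed from their own promoters, and in the alpha and gamma clusters these are spliced to shared constant exons. Lung epithelium is held together mainly by E-cadherin, the product of Cdh1, which stands outside the rule. Cdh1 had mean levels of 948.6 ± 59.4 CPM (sgNeo) and 1047 ± 63.8 CPM (sgLkb1) (SD, n = 3, edgeR adjusted p = 0.599), where CPM is the usual read count scaled to library size.

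Promoter sequences were at hand in RefSeq (GRCm38.p6) for 24 of the 92 symbols. Among the 13 members that passed the test below, only Celsr2 had a sequence in this set. It is shown beside Cdh6, the member with the greatest fitted rise among those with counts in both genotypes. Each is the 250 bases before the gene's RefSeq start, on the gene's minus strand, with the letters CAGGTG (an E-box) in capitals. For Celsr2 the RefSeq start lies upstream of the GENCODE start used for gene positions below. The Celsr2 window is chr3:108415580-108415829 and the Cdh6 window is chr15:13173676-13173925.
Celsr2: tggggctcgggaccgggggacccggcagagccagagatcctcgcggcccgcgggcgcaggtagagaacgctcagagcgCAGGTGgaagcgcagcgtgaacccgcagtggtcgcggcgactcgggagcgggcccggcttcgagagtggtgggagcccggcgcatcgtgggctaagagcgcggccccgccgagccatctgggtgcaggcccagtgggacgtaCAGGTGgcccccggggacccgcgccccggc
Cdh6: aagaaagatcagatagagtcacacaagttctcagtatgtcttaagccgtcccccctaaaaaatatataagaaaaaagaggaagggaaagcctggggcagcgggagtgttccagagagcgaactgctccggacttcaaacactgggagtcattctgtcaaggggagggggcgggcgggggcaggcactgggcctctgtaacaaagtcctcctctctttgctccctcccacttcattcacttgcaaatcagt
Celsr2 holds 2 matches, 172 and 30 bases before the RefSeq start, in a window of 75.2% G and C. Cdh6 holds 0 matches on either strand, in a window of 51.2% G and C. CAGGTG or its reverse complement CACCTG stood in 17.2% of 32851 promoters of the same length. TGACG or its complement CGTCA, the core of the cyclic AMP response element, stood in 17.8% of them and in 0 of these 2 windows. The letters alone are a description of the windows.

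Total counts per library were 26007426 to 28986473 for sgNeo and 29613629 to 41729248 for sgLkb1, which makes 3 counts worth 0.12 CPM in an sgNeo library and 0.073 to 0.086 CPM in the sgLkb1 ones. For Stk11, the targeted gene, sgNeo libraries gave 68.3, 33.4 and 82.7 CPM and sgLkb1 libraries 23.5, 25.6 and 25.3 CPM (edgeR log2 fold change -1.31 ± 0.30 SE, adjusted p = 0.023). The groups did not overlap, and the call was lost in 5 of 6 fits with a library left out (all but sgNeo replicate 2, adjusted p up to 0.0757). The 7 epithelial markers summed to 6089 to 7051 CPM in sgNeo and 8488 to 10500 CPM in sgLkb1, with Epcam and Krt19 higher and Nkx2-1 lower.

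Of the 93 members, 49 had enough counts to be tested. A further 32 had counts but too few, and 12 had no count in any library. Past the threshold were 13 of the 49 (26.5%), against 15.7% of the 15978 genes tested. In sgLkb1, 7 members rose (14.3%, against 7.05% of all genes): Cdh13, Cdh11, Cdh5, Cdh3, Celsr2, Pcdh12 and Pcdhb12. The 6 that fell (12.2%, against 8.6% of all genes) were Cdh16, Cdh4, Celsr1, Pcdhgc3, Pcdhgc4 and Pcdhga10. The median log2 fold change, sgLkb1 minus sgNeo, was 0.22 over the tested members, also with Pcdhb12 at its bound, and 0.02 over all tested genes. In 16 tested members (32.7%) every sgLkb1 library lay above every sgNeo library, against 16.3% of all genes. In 14 (28.6%) every sgLkb1 library lay below every sgNeo library, against 20.3%. Of those 14, 11 are gamma cluster members, which share exons and reads and so are not separate observations. Of the 6 that fell, 3 are gamma cluster members too. The filter asks for 0.341 CPM, and 10 tested members reached it on average in sgLkb1 only, so they entered the test through the group where they are high. They are Pcdhb7, Pcdhb9, Pcdhb12, Pcdhb14, Pcdhb17, Pcdhb19, Pcdhb20, Pcdhga1, Pcdh12 and Pcdh15, and 5 of them (Pcdhb12, Pcdhb14, Pcdhb20, Pcdh12 and Pcdh15) reached it in no sgNeo library. Pcdh10 reached it on average in sgNeo only. Of the 10 that entered through sgLkb1, Pcdhb12 and Pcdh12 are among the 7 that rose. All but Pcdhb19 and Pcdhga1 are among the 16 that lay above every sgNeo library. Both counts therefore rest in part on the filter and are not support of their own.

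**Figure D1:**
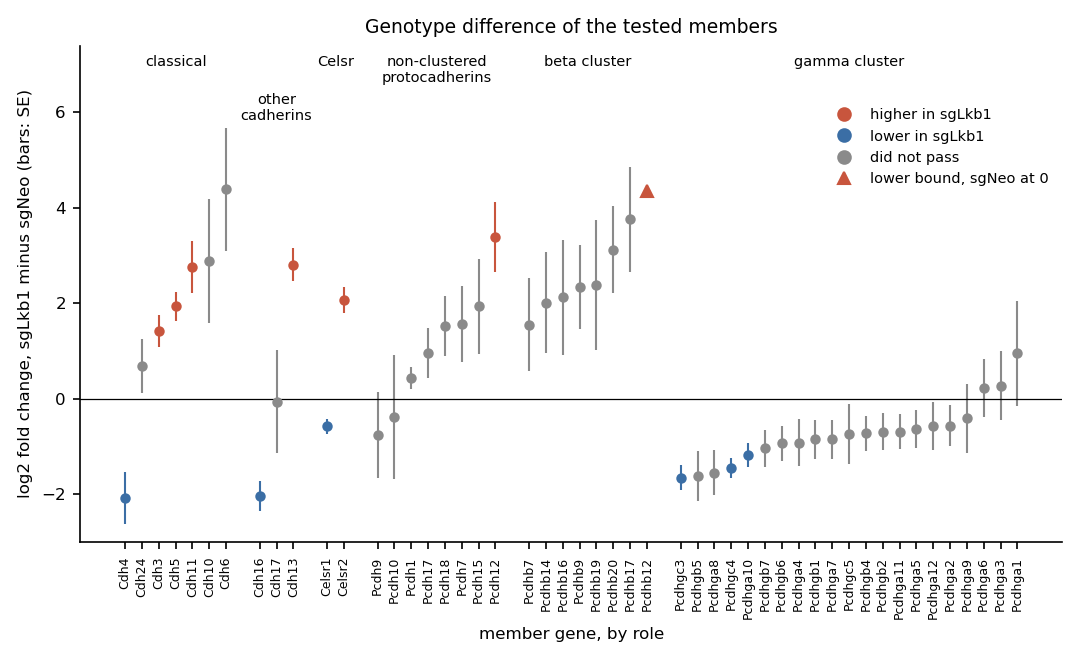
Fitted log2 fold change (sgLkb1 minus sgNeo) of the 49 tested members, ordered by size within each role, with bars for the standard error. Red and blue points passed edgeR's test, grey points did not, and the triangle for Pcdhb12 is a lower bound because all sgNeo libraries were at 0. The 8 tested beta cluster members lie above 0, but 7 of them reached the filter's minimum on average in sgLkb1 only. Of the 21 gamma cluster members, which share exons and reads, 18 lie below 0.

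Among the 16 classical cadherins 7 were tested, of which Cdh5, Cdh11 and Cdh3 rose and Cdh4 fell. Cdh5 encodes VE-cadherin, the cadherin of endothelial junctions. It was at 3.61, 4.78 and 3.07 CPM in sgNeo replicates 1, 2 and 3 and at 11.0, 19.1 and 13.7 CPM in sgLkb1. All sgLkb1 libraries lay above all sgNeo libraries, with group means of 3.82 ± 0.87 and 14.6 ± 4.15 CPM (edgeR log2 fold change 1.93 ± 0.31 SE, adjusted p = 0.00532). The call held with each library left out.

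Cdh11, a type II cadherin known from mesenchymal cells and osteoblasts, was at 2.97, 1.94 and 1.35 CPM in sgNeo and at 6.70, 10.5 and 25.3 CPM in sgLkb1. The groups did not overlap, and sgLkb1 replicate 3 stood highest (edgeR log2 fold change 2.76 ± 0.55 SE, adjusted p = 0.013). Without that library the log2 fold change was 2.03 and still passed, whereas the call was lost without sgNeo replicate 2 or 3 (adjusted p = 0.0627 and 0.0506) and under limma-voom (0.0548). Cdh3 encodes P-cadherin, found in basal layers of stratified epithelia. Its levels were 1.73, 2.59 and 2.11 CPM in sgNeo and 4.45, 6.04 and 6.77 CPM in sgLkb1, without overlap (edgeR log2 fold change 1.42 ± 0.34 SE, adjusted p = 0.0271). Cdh4, R-cadherin, known from retina and kidney, went the other way, with 3.05, 1.46 and 1.75 CPM in sgNeo and 0.71, 0.39 and 0.37 CPM in sgLkb1 (edgeR log2 fold change -2.07 ± 0.55 SE, adjusted p = 0.0383). The calls of Cdh3 and Cdh4 were each lost in 5 of 6 fits with a library left out, all but that without sgLkb1 replicate 1, with adjusted p up to 0.0968 and 0.156.

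Cdh6, K-cadherin of the embryonic kidney, varied widely within both genotypes. It was at 0.28 and 0.20 CPM in sgNeo replicates 1 and 2 but at 7.05 CPM in sgNeo replicate 3. In sgLkb1 it was at 11.8, 111.3 and 35.5 CPM, above every sgNeo library. With a log2 fold change of 4.39 ± 1.29 (SE), Cdh6 did not pass edgeR's test (adjusted p = 0.0548). Without sgNeo replicate 3 it was 7.74 and passed (adjusted p = 0.0129), and without sgLkb1 replicate 1 it also passed (adjusted p = 0.0346). DESeq2 called it (adjusted p = 0.0218) and limma-voom did not (adjusted p = 0.121). Cdh10 exceeded 1 CPM in sgLkb1 replicates 2 and 3 only, at 6.98 and 1.29 CPM (log2 fold change 2.89, edgeR adjusted p = 0.18). Leaving out sgLkb1 replicate 1 brought Cdh10 past the threshold (adjusted p = 0.0471), and leaving out sgLkb1 replicate 2 lowered its log2 fold change to 0.93. Cdh24 overlapped between the groups (0.68, adjusted p = 0.46). Of the 9 classical cadherins not tested, Cdh20 and Cdh22 had no counts. Cdh9 had 13, 4 and 0 counts in sgNeo and 0 in every sgLkb1 library.

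The remaining cadherins outside the protocadherins have atypical tails or roles. Cdh13, T-cadherin, is held in the membrane by a lipid anchor without a cytoplasmic tail and binds adiponectin. It was at 13.6, 23.3 and 21.5 CPM in sgNeo and at 84.0, 200.6 and 125.4 CPM in sgLkb1, a 7.03-fold rise without overlap (edgeR log2 fold change 2.81 ± 0.35 SE, adjusted p = 0.00204). Cdh16 encodes Ksp-cadherin, a short-tailed cadherin whose name stands for kidney-specific. It was at 40.0, 51.3 and 47.0 CPM in sgNeo and at 11.6, 6.38 and 16.0 CPM in sgLkb1. The groups did not overlap, a 4.08-fold fall (edgeR log2 fold change -2.03 ± 0.32 SE, adjusted p = 0.00501). Both calls held with each library left out. Cdh13 over Cdh16 in CPM ran from 0.34 to 0.46 over the sgNeo libraries and from 7.27 to 31.5 over the sgLkb1 ones.

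Cdh17, the liver-intestine cadherin, varied within both genotypes, at 0.40, 4.05 and 18.3 CPM in sgNeo and 3.25, 15.0 and 3.56 CPM in sgLkb1. In edgeR its log2 fold change of -0.06 (with an SE of 1.08 and adjusted p = 0.976) changed sign with the settings, to 1.70 without sgNeo replicate 3. Cdh23, the tip-link cadherin of hair cells, had 0, 5 and 0 counts in sgNeo and 2, 10 and 17 in sgLkb1, and Cdh26 had 1 count in all. Neither was tested.

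**Figure D2:**
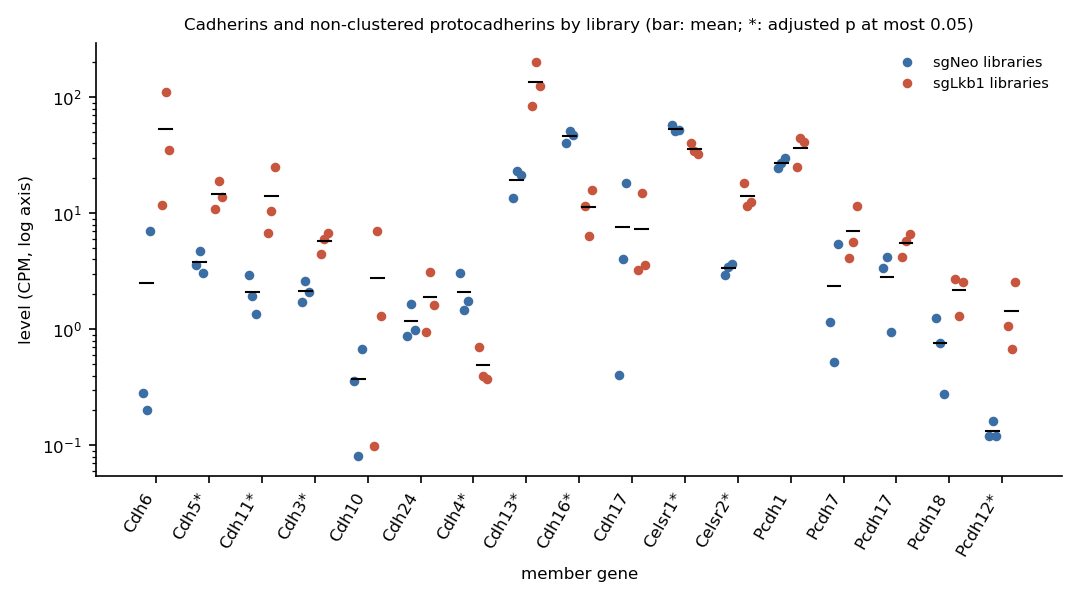
Level in each library (CPM, log axis), with sgNeo and sgLkb1 libraries in different colours. The members are those outside the clusters with a mean of at least 1 CPM in either genotype (black bars: means; asterisks: passed the test). Cdh13, Cdh5 and Celsr2 are higher in each sgLkb1 library and Cdh16 lower, while Cdh17 overlaps and Cdh6 in sgNeo replicate 3 stands above the other sgNeo libraries.

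Per kilobase of merged exon, which allows genes to be compared, the order of mean levels differed between the genotypes. In sgNeo it was Cdh16 at 12.2, Celsr1 at 4.86, Pcdh1 at 3.10, Cdh13 at 1.73 and Cdh17 at 1.69 CPM per kb. In sgLkb1 it was Cdh13 at 12.2, Cdh6 at 5.86, Pcdh1 at 4.19, Cdh5 at 3.47, Celsr1 at 3.25 and Cdh16 at 2.98 CPM per kb. These orders cover the 36 members outside the clusters. The place of Cdh6 rests on sgLkb1 replicate 2, without which Cdh6 was at 2.62 CPM per kb, below Cdh13, Pcdh1, Cdh16, Celsr1 and Cdh5. That of Cdh17 in sgNeo rests on replicate 3, without which it was at 0.50 CPM per kb, below Cdh5. Cdh1 stood far above them in both genotypes, at 207.4 and 228.9 CPM per kb.

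Some of the cadherins that passed lie on chromosome 8, a grouping noticed after the calls. In GRCm38 they are Cdh11 (102632095 to 102785642, minus strand), Cdh5 (104101625 to 104144511, plus), Cdh16 (104601911 to 104624396, minus), Cdh3 (106510891 to 106557297, plus) and Cdh13 (118283733 to 119324921, plus). Cdh16, which fell, lies between Cdh5 and Cdh3, which rose. Cdh1, outside the rule, lies between Cdh3 and Cdh13 (106603351 to 106670246, plus) and did not pass, as given above. Cdh8 and Cdh15 on the same chromosome had too few counts for a test.

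Some markers of other cells also differed between the genotypes. Of 15 endothelial markers 3 rose (Flt1, Emcn and Kdr) and 1 fell (Esam), and their summed level was 294.7 to 355.8 CPM in sgNeo and 209.6 to 370.8 CPM in sgLkb1. Esam made up most of that sum in sgNeo. Without it the other 14 summed to 130.7, 117.6 and 80.2 CPM in sgNeo and to 177.3, 173.6 and 290.2 CPM in sgLkb1. These sums did not overlap, but Esam is the marker that fell, so the separation rests on leaving it out. Of the 15, 13 had a positive log2 fold change (median 0.94), and DESeq2 called 5 higher and 1 lower. Pecam1, a defining endothelial gene, was at 12.1, 15.6 and 8.41 CPM in sgNeo and at 15.8, 15.5 and 37.9 CPM in sgLkb1 (edgeR adjusted p = 0.149). Among the sgLkb1 libraries Pecam1, Emcn and Kdr were highest in replicate 3, Flt1 in replicate 1 and Cdh5 in replicate 2. Of 15 fibroblast markers 5 rose (Col1a1, Col1a2, Col3a1, Pdgfra and Mfap5), and their sum was 283.3 to 461.7 CPM in sgNeo and 417.4, 545.9 and 1639 CPM in sgLkb1 replicates 1, 2 and 3. Npnt, with a log2 fold change of -0.34 that did not pass, made up most of the sgNeo sums. The other 14 summed to 144.9, 55.0 and 46.1 CPM in sgNeo and 209.6, 287.3 and 1465 CPM in sgLkb1, without overlap. This separation rests on leaving out Npnt, which went the other way. Of the 15, 13 had a positive log2 fold change (median 2.47). Cdh11 was highest in sgLkb1 replicate 3, and these highest libraries were compared without a test. Of the 6 tested mesothelial markers 2 rose (Msln and Aldh1a2), with sums of 174.7 to 429.3 CPM in sgNeo and 831.2 to 1423 CPM in sgLkb1. Nearly all of this was Msln, without which the other 7 listed summed to 3.35 to 6.90 CPM in sgNeo and to 18.01, 148.3 and 143.8 CPM in sgLkb1.

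Pericyte and smooth muscle markers summed to 18.1 to 34.9 CPM in sgNeo and 42.3 to 85.8 CPM in sgLkb1. Of the 8 tested, 0 passed edgeR's adjusted threshold, 5 had an unadjusted p of at most 0.05, DESeq2 called 4 and limma-voom 1. Of 6 ciliated cell markers, with sums of 50.6 to 55.7 and 47.5 to 84.1 CPM, 1 rose (Tmem212). Of 3 tested neuroendocrine and neural markers 1 rose (Calca), with Sox10 at 0 in every library. Sums of that list were 1.51 to 1.98 and 4.04 to 12.9 CPM. Calca reached the filter's minimum in no sgNeo library and so was tested through sgLkb1 alone. Its sgLkb1 levels of 1.05, 1.99 and 9.3 CPM made up much of the sums there. Of 7 tested leukocyte markers 2 fell: Cd79a and Lyz2, of which alveolar type 2 cells also express Lyz2. The leukocyte sum, mostly Lyz2, was 25580 to 37900 CPM in sgNeo and 1866 to 3799 CPM in sgLkb1, and without Lyz2 it was 15.9 to 20.5 and 14.9 to 33.2 CPM. Ptprc, which encodes the CD45 of the sort, was at 7.23 ± 2.10 and 6.70 ± 3.24 CPM (SD, n = 3). In bulk RNA a change in the share of a cell type and a change per cell cannot be told apart, and the part of other cells in the cadherin differences was not tested.

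Celsr proteins are seven-pass cadherins that pair across cell borders in planar polarity. Celsr1 (chr15:85898929-86033777, minus strand) was at 57.6, 50.9 and 51.8 CPM in sgNeo and at 40.5, 34.6 and 32.4 CPM in sgLkb1. The groups did not overlap, and the fall was 1.49-fold (edgeR log2 fold change -0.58 ± 0.15 SE, adjusted p = 0.0374). That call was lost in 5 of 6 fits with a library left out, all but that without sgLkb1 replicate 1 (adjusted p up to 0.139). Celsr2 (chr3:108390851-108415552, minus strand), whose promoter is shown above, was at 2.97, 3.44 and 3.63 CPM in sgNeo and at 18.3, 11.6 and 12.4 CPM in sgLkb1, a 4.21-fold rise (edgeR log2 fold change 2.07 ± 0.28 SE, adjusted p = 0.00268). Celsr2 held its call with each library left out. The ratio of Celsr1 to Celsr2 in CPM was 14.3 to 19.4 in sgNeo and 2.22 to 2.99 in sgLkb1. Celsr3 had 0, 8 and 1 counts in sgNeo and 0, 0 and 5 in sgLkb1 and was not tested.

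Of 13 tested planar polarity partners of the Celsr proteins (Vangl, Fzd, Prickle and Dvl genes among them), 0 passed edgeR's adjusted threshold. At an unadjusted p of at most 0.05, 4 were higher and 1 lower, DESeq2 called 4 higher, and limma-voom called 0. Vangl2 and Vangl1, which encode transmembrane partners in the polarity complex, had log2 fold changes of 1.12 and 0.64 (edgeR adjusted p = 0.107 and 0.102).

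Among the 12 non-clustered protocadherins 8 were tested and Pcdh12 rose. Pcdh12 is known from endothelial cells and trophoblast. It was at 0.12, 0.16 and 0.12 CPM in sgNeo, near the level of 3 counts, and at 1.08, 0.68 and 2.55 CPM in sgLkb1, without overlap (edgeR log2 fold change 3.38 ± 0.73 SE, adjusted p = 0.0179). The call was lost without any 1 of the sgNeo libraries or without sgLkb1 replicate 3, where the log2 fold change was 2.67 (adjusted p up to 0.0738), and under limma-voom (adjusted p = 0.0795). Pcdh12 was highest in sgLkb1 replicate 3.

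Pcdh1, a protocadherin of airway epithelium, was at 24.5, 27.3 and 30.0 CPM in sgNeo and at 25.1, 44.3 and 41.1 CPM in sgLkb1 (log2 fold change 0.43, edgeR adjusted p = 0.247). The groups overlapped through sgLkb1 replicate 1, and without it the value was 0.66 and passed (adjusted p = 0.0243). Pcdh7 was at 1.16, 0.53 and 5.46 CPM in sgNeo and at 4.11, 5.64 and 11.5 CPM in sgLkb1 (log2 fold change 1.57, edgeR adjusted p = 0.229). Its sgNeo replicate 3 stood high, as did that of Cdh6, and without it the value was 3.06 (adjusted p = 0.0305). Pcdh17, Pcdh18 and Pcdh15 were higher in every sgLkb1 library than in any sgNeo library, with log2 fold changes of 0.96, 1.52 and 1.93, and did not pass (edgeR adjusted p = 0.256, 0.142 and 0.236). Pcdh9 and Pcdh10 overlapped between the groups (log2 fold changes -0.75 and -0.38). Exons of Pcdh7 and Pcdh10 overlap a gene on the other strand, whose reads cannot be told apart here.

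**Figure D3:**
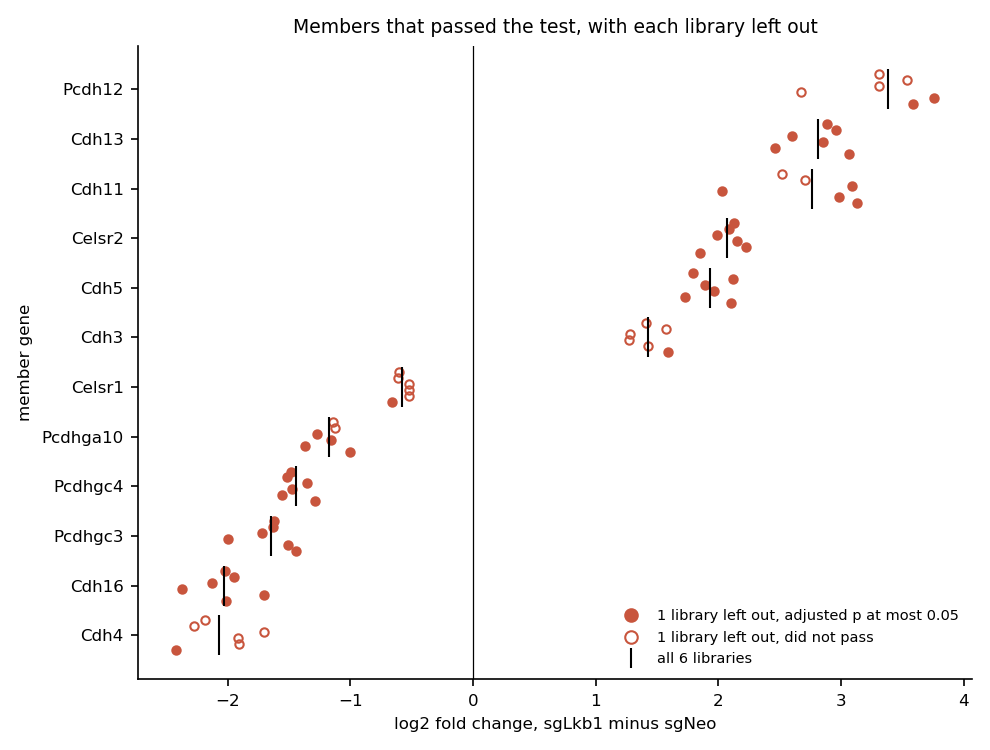
Fitted log2 fold change of the members that passed the test, leaving out Pcdhb12, for all 6 libraries (bar) and with each library left out in turn (points, filled where the adjusted p was at most 0.05). Cdh13, Cdh5, Celsr2, Cdh16, Pcdhgc3 and Pcdhgc4 have filled points only, and Celsr1, Cdh3 and Cdh4 have 1 filled point each.

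The clustered protocadherins lie in 3 neighbouring arrays on chromosome 18 (GRCm38): alpha from 36930184 to 37187661, beta from 37264938 to 37524479 and gamma from 37661793 to 37841873. In the annotation all 21 gamma members share exons with each other, over 27.8% to 66.8% of each member's exon length, and all 14 alpha members do. Among the 22 beta members only Pcdhb21 and Pcdhb22 do, over at most 9.67%. Reads from shared gamma exons are divided between members by the authors' counting, whereas the sum over a cluster does not depend on that division.

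The gamma cluster was the most abundant of the 3, and it fell. Its sum was 154.5, 173.9 and 166.9 CPM in sgNeo and 58.8, 76.8 and 90.1 CPM in sgLkb1. Every sgLkb1 library lay below every sgNeo library, and the group means of 165.1 ± 9.86 and 75.2 ± 15.7 CPM differed 2.20-fold (edgeR log2 fold change -1.13 ± 0.18 SE, adjusted p = 0.00601). With the sums in place of the members, 15.7% of 15951 tested features passed. Between 20 and 21 gamma members had counts in every library.

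Of the 21 gamma members, all tested, 3 fell and 18 had a negative log2 fold change. Their median was -0.74. Pcdhgc3 and Pcdhgc4 are C-type isoforms, which differ from the A and B types in sequence and lie nearest the constant exons. Pcdhgc3 was at 35.3, 40.0 and 40.4 CPM in sgNeo and at 8.91, 10.5 and 17.5 CPM in sgLkb1 (edgeR log2 fold change -1.65 ± 0.26 SE, adjusted p = 0.00535). Pcdhgc4 was at 44.2, 35.7 and 37.5 CPM in sgNeo and at 11.2, 17.2 and 14.7 CPM in sgLkb1 (edgeR log2 fold change -1.45 ± 0.20 SE, adjusted p = 0.00334). Neither overlapped between the genotypes, and both calls held with each library left out.

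Pcdhga10, an A-type isoform, was at 13.5, 16.7 and 16.3 CPM in sgNeo and at 5.19, 8.87 and 6.54 CPM in sgLkb1 (edgeR log2 fold change -1.18 ± 0.26 SE, adjusted p = 0.0193). Its call was lost without sgNeo replicate 2 or 3 (adjusted p = 0.0845 and 0.0642). The most abundant of the others, Pcdhgb6, was at 10.7, 11.5 and 11.2 CPM in sgNeo and at 2.96, 8.42 and 6.05 CPM in sgLkb1 and did not pass (adjusted p = 0.13). Pcdhga8 and Pcdhgb5 had log2 fold changes of -1.55 and -1.62 and did not pass (edgeR adjusted p = 0.0592 and 0.0736), though DESeq2 called both. Pcdhgc5, the third C-type isoform and the last of the array, overlapped between the groups (log2 fold change -0.74, edgeR adjusted p = 0.471). Without a known strand setting, reads of genes on the other strand that overlap exons of Pcdhgc3, Pcdhga10 and Pcdhb12 cannot be told apart from theirs. Pcdhga1, Pcdhga3 and Pcdhga6 had positive values from 0.22 to 0.95. Counted by type, the C-type members held 44.9% to 53.0% of the gamma CPM in sgNeo and 35.1% to 39.3% in sgLkb1. The 12 A-type members held 27.6% to 31.8% and 35.9% to 39.0%. These shares were compared without a test, as reads of shared exons enter all of them.

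The beta cluster was low in sgNeo and rose. Its summed counts were 44, 73 and 61 in sgNeo and 253, 728 and 469 in sgLkb1, or 1.76, 2.96 and 2.43 CPM against 6.19, 19.1 and 13.5 CPM. The groups did not overlap, with means of 2.38 ± 0.60 and 12.9 ± 6.48 CPM, a 5.41-fold difference (edgeR log2 fold change 2.44 ± 0.45 SE, adjusted p = 0.00945). Members with at least 10 counts numbered 3, 2 and 2 in sgNeo libraries and 9, 11 and 14 in sgLkb1 libraries, with the deeper totals among the sgLkb1 libraries. Beta reads were 1.13% to 1.67% of all beta and gamma reads in sgNeo and 9.52% to 19.9% in sgLkb1.

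Of the 22 beta members 8 were tested and Pcdhb12 rose. Pcdhb12 had no counts in sgNeo and was at 0.56, 0.97 and 0.95 CPM in sgLkb1, at least 20.4-fold higher against 3 counts over the sgNeo group (edgeR adjusted p = 0.0102). With a library left out the bound lay between 13.5 and 23.9 (lowest without sgNeo replicate 3), and the call held. Pcdhb17 was at 0.48, 0.040 and 0 CPM in sgNeo and at 1.17, 2.49 and 3.56 CPM in sgLkb1 (log2 fold change 3.76, edgeR adjusted p = 0.0544). Pcdhb20 was at 0.16, 0.24 and 0 CPM against 1.08, 0.97 and 1.55 CPM (log2 fold change 3.12, adjusted p = 0.0529). Both stood above every sgNeo library in each sgLkb1 library without passing edgeR's test. DESeq2 called both, and limma-voom called Pcdhb17. All 8 tested beta members had positive log2 fold changes, and in 6 the groups did not overlap. Of these 8, 7 reached the filter's minimum on average in sgLkb1 only, so this count is not support of its own. Among those not tested, Pcdhb4 had no counts in sgNeo and 2, 21 and 29 counts in sgLkb1, and Pcdhb22 had 0, 7 and 7 against 14, 93 and 12. Of the 22, 16 had a higher mean in sgLkb1, 3 a lower mean and 3 no counts. Most of the 22 had too few counts for a test, so this count is not support of its own either.

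The alpha cluster was nearly silent, with 2, 34 and 0 summed counts in sgNeo and 0, 9 and 10 in sgLkb1, and none of its 14 members was tested. Pcdhac2 held 20 of the 34 counts of sgNeo replicate 2.

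**Figure D4:**
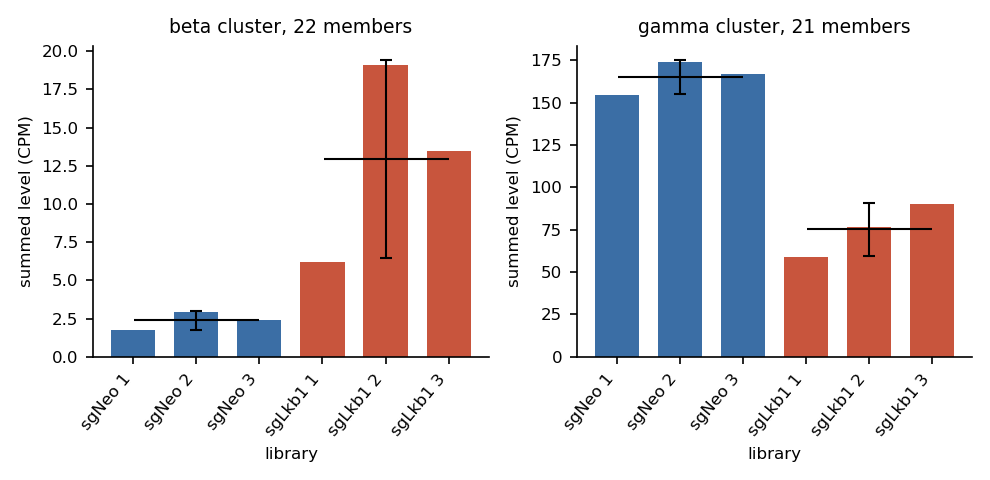
Summed level of the 22 beta and 21 gamma cluster members in each library (bars, CPM), with the group mean and SD of 3 libraries in black. The beta sum lies between 1.76 and 2.96 CPM in sgNeo and between 6.19 and 19.1 CPM in sgLkb1, and the gamma sum between 154.5 and 173.9 CPM in sgNeo and between 58.8 and 90.1 CPM in sgLkb1.

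**Figure D5:**
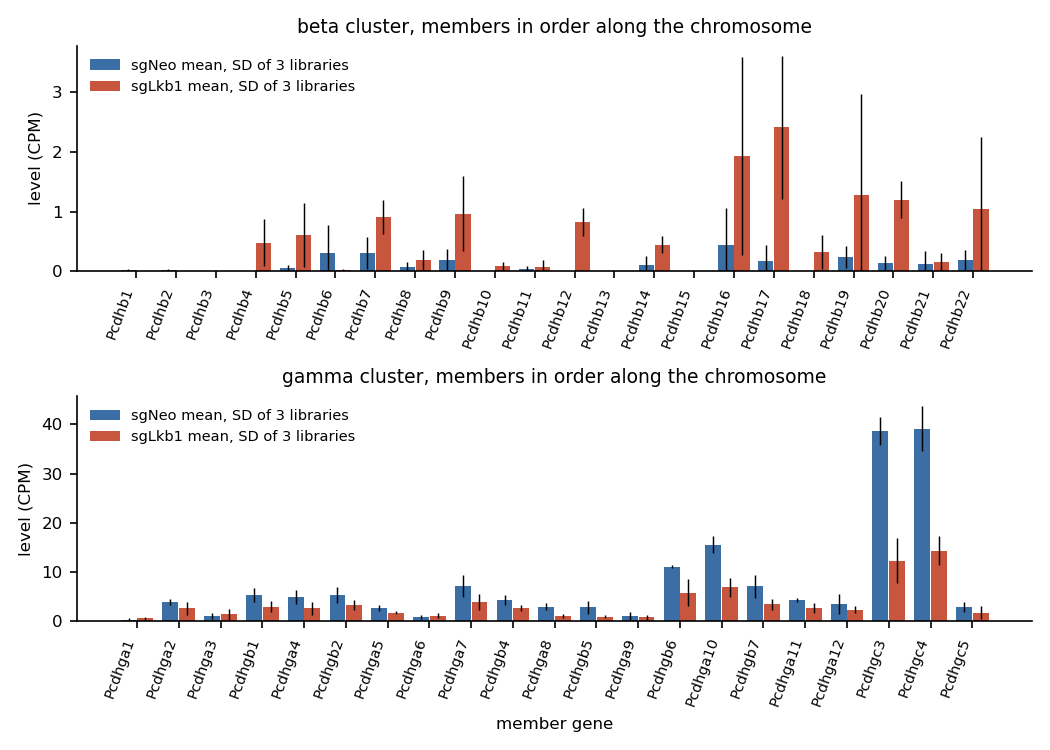
Mean level of each beta and gamma cluster member in CPM (bars) with the SD of 3 libraries, in order along the chromosome. Beta levels are higher in sgLkb1 for most members with counts, though many of these had too few for a test. The gamma fall is greatest in CPM for Pcdhgc3 and Pcdhgc4, next to the last member Pcdhgc5.

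Of 10 chromatin regulators known to act on the clusters, among them Ctcf, Rad21 and Smchd1, 0 passed edgeR's adjusted threshold, 1 had an unadjusted p of at most 0.05, and DESeq2 and limma-voom called 0. Ctcf, the insulator protein that joins cluster promoters to their enhancers, had a log2 fold change of 0.22 (edgeR adjusted p = 0.446). Of 8 tested WAVE complex genes, which link some protocadherin tails to actin, Abi1 rose (log2 fold change 0.72, edgeR adjusted p = 0.0228).

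Among 12 tested catenins and other partners of the cadherin tail, 2 rose and 1 fell. Adam10, the protease that sheds cadherin ectodomains, rose from 176.5 ± 12.8 to 454.5 ± 117.1 CPM (SD, n = 3, edgeR log2 fold change 1.36 ± 0.21 SE, adjusted p = 0.00489). Ctnnb1, beta-catenin, rose from 927.6 ± 27.7 to 1495 ± 233.2 CPM (log2 fold change 0.69, edgeR adjusted p = 0.0385), and Ctnnd2, delta-catenin, fell from 13.0 ± 2.44 to 2.57 ± 2.09 CPM (log2 fold change -2.33, edgeR adjusted p = 0.0247). Of 5 nectins, junction proteins that act beside cadherins, Nectin1 fell (log2 fold change -1.34, edgeR adjusted p = 0.024). Of 6 Fat and Dchs cadherins, Fat2 fell (-2.36, adjusted p = 0.0369), and of 5 cadherin-related genes of the brush border list, Cdhr5 rose (2.30, adjusted p = 0.0372). Of 6 tip link partners, Cib2 fell (-1.14, adjusted p = 0.0494), and Ush1g, a scaffold of that complex, had no counts in sgNeo and was at 1.52, 10.5 and 6.17 CPM in sgLkb1 (adjusted p = 0.00621). Ush1g and Cdhr5 reached the filter's minimum in no sgNeo library and so were tested through sgLkb1 alone.

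Over the partner lists 5 of 65 tested genes rose and 4 fell, against 7.05% and 8.6% of all genes. Adam10 and Ush1g kept their calls with each library left out. Nectin1 lost its call without sgNeo replicate 1 or 3 or sgLkb1 replicate 2. Ctnnb1 and Abi1 lost theirs without any 1 of the sgNeo libraries or without sgLkb1 replicate 2, and Ctnnd2 without any 1 of the sgNeo libraries or without sgLkb1 replicate 1. For Ctnnd2 the log2 fold change was -3.20 when sgLkb1 replicate 2 was left out. Cdhr5 kept its call only without sgLkb1 replicate 1, and Fat2 and Cib2 lost theirs with any library left out.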

How the data were processed

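The values are expected counts for each gene as deposited by the authors. The tools listed in the submitters' processing notes are STAR, RSEM, FastQC and DESeq2, and the build is GRCm38, with no versions. A read that fits several genes is split among them by RSEM, which leaves single gamma cluster members uncertain. Sequence similarity between beta members was not measured, so how far their reads were split is not known. Strand setting and annotation release: not given in the sources used here. Rounding to whole numbers before the tests changed 11.3% of values, and 15978 of 55487 genes passed filterByExpr. The genotypes were compared with edgeR 4.0.16 (R 4.3.3), with TMM scaling, genotype as the only term, the two-sided quasi-likelihood test and Benjamini-Hochberg adjustment over all tested genes at 0.05. CPM values are relative to TMM-scaled library sizes, and the SE was obtained by dividing the size of the log2 fold change by the root of F. Folds against a group at 0 use 3 counts over the group and cover counting error only. For the cluster sums, the members of each cluster were replaced by 1 row before the fit. Gene positions come from GENCODE M21 (GRCm38), in which 92 of 93 member identifiers matched exactly and 93 without the version.

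Named were all members past the threshold, members outside the clusters with a mean of at least 1 CPM, a set of cadherins whatever their values, the 10 most abundant cluster members, and from each partner list the called genes and the first 2. The text prints part of these, and names further genes by their counts, which were chosen after their values were seen. The members, partner lists and marker lists were chosen with earlier results of these data known. Replicates differed by more than sampling noise in every pair. Other settings tried were upper-quartile and RLE scaling, no filter, a filter of 1 CPM in 3 libraries, limma-voom (limma 3.58.1), DESeq2 1.42.0, robust dispersion, a replicate block and leaving out each library. The script was tested on simulated data.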

Additional observations from a re-analysis of the deposited data

How the results depend on the processing

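The beta and gamma sums kept their direction and passed under every setting run, with log2 fold changes of 2.08 to 2.77 and of -1.30 to -0.97. Adding Pcdhgb8 and 4 overlapping models to the gamma sum, chosen after seeing the data, gave -1.13 (edgeR adjusted p = 0.0061). The per-kilobase order with a library left out and the marker sums without their most abundant gene were also added after seeing the data. By DESeq2 10 members rose and 8 fell, among them all 13 that passed in edgeR and, in addition, Cdh6, Pcdhb17, Pcdhb20, Pcdhga8 and Pcdhgb5. DESeq2 also called more of all genes, 1819 higher and 1740 lower, against 1127 and 1374 by edgeR. Limma-voom added Pcdhb17 and lost Cdh11 and Pcdh12. The genes Pcdh12 and Pcdhb12 could not be tested under the filter of 1 CPM in 3 libraries, which tests fewer genes. Without a filter 14 members rose, as Cdh10, Cdh6, Pcdh7, Pcdhb17, Pcdhb18, Pcdhb20 and Pcdhb4 joined, while Celsr1 lost its call (adjusted p = 0.0796). With each library left out, 4 (without sgNeo replicate 2) to 12 (without sgLkb1 replicate 1) members rose and 3 (without sgNeo replicate 2 or 3) to 7 fell. Of the partner genes 10 rose without a filter and 10 by DESeq2, and with each library left out 2 to 9 rose and 0 to 2 fell.

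Over all genes 1917 rose without a filter and 1819 by DESeq2, and with each library left out 447 to 1368 rose and 682 to 1412 fell. Cdh17 changed sign, to 0.82 under limma-voom and 0.91 with the replicate block, and ranged from -1.13 to 1.70 with each library left out (0.27 without sgLkb1 replicate 1 and 0.24 without sgLkb1 replicate 3). The cause was not tested. Whether the replicate numbers pair the libraries is not settled by these data. Correlations of same-numbered deviations were 0.135, -0.021 and 0.115, and those of differently numbered ones ran from -0.174 to 0.088. Not every library correlated best with its own number. With the replicate block 9 members rose and 6 fell, adding Cdh6 and Pcdh7, and over all genes 1336 rose and 1544 fell. Depth limits the alpha cluster and the 32 members with too few counts for a test, of which Pcdhb4, Pcdhb18 and Pcdhb5 were called under other settings (Pcdhb4 and Pcdhb5 without sgLkb1 replicate 1).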
